A study of Mus musculus with 12 samples.

Results

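The genes described here are 8 genes of the mitochondrial route of cell death: Apaf1, Casp9, Cycs, Bax, Bak1, Bcl2, Bcl2l1 and Diablo. They were taken from the array's gene annotation by symbol, with the brightest probe standing for each gene. The list was drawn up because Apaf1 was lower on each DMA array than on any DMSO array at 48 h, so the 48 h values of the list are given as a description with no test. Of the 8 genes, 7 had a named probe, among 18069 named genes in all. The annotation used here names no probe for Bax, and the brightest Cycs probe had a value on 1 of 12 arrays. The remaining 6 were among the 17611 genes that could be tested, and a dimmer Cycs probe was also followed.

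Hearts came from Balb/c mice gavaged once with DMA, a compound whose abbreviation the labels do not expand, or with the vehicle DMSO. DMA was given at 30 mg per kg of body weight. There were 3 arrays in each of 4 groups: DMA and DMSO at 24 h after dosing, and DMA and DMSO at 48 h. The design text says that hearts of a group were extracted as a pool, and the labels call the arrays biological replicates. The p-values therefore rest only on the spread between arrays of a group, estimated over the 4 groups together. That spread may be technical. An SE or p-value at 48 h thus also carries the spread of the 24 h arrays. No genetic alteration is named in the labels, nor the age of the mice.

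In the mitochondrial route of cell death, pores formed in the outer mitochondrial membrane let cytochrome c pass into the cytosol. Cytochrome c binds Apaf1, which assembles into a wheel-shaped complex, the apoptosome, and there recruits and activates caspase-9, the initiator of the downstream caspases. Bax and Bak1 form the pores, Bcl2 and Bcl2l1 (Bcl-xL) restrain them, and Diablo (Smac) leaves the mitochondria to relieve the block that inhibitor of apoptosis proteins place on caspases. Adult heart muscle cells are known for low Apaf1 and a weak caspase response to cytosolic cytochrome c, beside a very large store of mitochondria.

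The 3 promoters printed here belong to the members whose DMA and DMSO arrays did not overlap at 48 h. Each is the 250 bases before the gene start in RefSeq, build GRCm38.p6, written 5′ to 3′ on the gene's strand, with capitals at each GC box (GGGCGG, read on both strands). Apaf1 lies at chr10:91082744-91082993 on the minus strand, Casp9 at chr4:141793362-141793611 on the plus strand and Bcl2 at chr1:106714291-106714540 on the minus strand.
Apaf1: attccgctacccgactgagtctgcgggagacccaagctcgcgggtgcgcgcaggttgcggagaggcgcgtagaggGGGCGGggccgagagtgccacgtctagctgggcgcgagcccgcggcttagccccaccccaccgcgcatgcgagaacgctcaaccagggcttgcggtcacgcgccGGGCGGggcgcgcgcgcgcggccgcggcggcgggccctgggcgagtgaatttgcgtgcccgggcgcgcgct
Casp9: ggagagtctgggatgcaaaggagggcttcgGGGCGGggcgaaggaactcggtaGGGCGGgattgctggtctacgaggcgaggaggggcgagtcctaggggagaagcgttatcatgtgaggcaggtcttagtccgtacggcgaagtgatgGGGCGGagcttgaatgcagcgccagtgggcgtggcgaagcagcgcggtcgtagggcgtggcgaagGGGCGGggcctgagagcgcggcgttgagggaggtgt
Bcl2: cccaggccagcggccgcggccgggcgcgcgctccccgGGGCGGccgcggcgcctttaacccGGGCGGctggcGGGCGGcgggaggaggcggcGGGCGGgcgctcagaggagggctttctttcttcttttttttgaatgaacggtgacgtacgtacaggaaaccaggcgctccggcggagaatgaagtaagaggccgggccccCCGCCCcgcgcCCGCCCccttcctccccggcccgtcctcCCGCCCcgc
GC boxes numbered 2 in the Apaf1 window, 4 in the Casp9 window and 7 in the Bcl2 window, and 32.7% of 32851 promoter windows of this length held at least 1. The letters of a CCAAT box (CCAAT, in 33.8% of windows), an E-box (CACGTG, in 6.02%) and an E2F-like site (TTTNNCGC, in 4.28%) were in none of these 3 windows. G and C made up 75.6% of the Apaf1 window, 66% of the Casp9 window and 74.8% of the Bcl2 window, against a median of 52.4% over all windows. These matches describe the sequence only.

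Values are log2 intensities of single-colour arrays, and 36227 probes were listed. Array medians lay between 6.03 and 6.04 at 24 h and between 6.35 and 6.36 at 48 h, so the times appeared to be scaled separately and levels across the times carry that shift. One array, DMA 24 h replicate 3, stood apart: its correlation with the 24 h median of the others was 0.742, where for the remaining 11 arrays the like value was 0.927 to 0.963. Of 24 cardiomyocyte markers 10 could be tested, whereas no array gave a value for Actc1 or Atp2a2 and another 11 had too few. Among the tested, Ttn read 13.27 to 14.74 on 10 arrays, Cox6a2 13.38 to 14.34 and Ldb3 12.88 to 13.98. Others were lower or varied widely, such as Myh6 at 3.84 to 9.82, Actn2 at 4.10 to 11.21 and Ryr2 at 5.41 to 7.54. Heart identity was thus visible only in part of its markers. The reason for missing values is not given, so a missing marker is not read here as a low one. Probes with a value only on DMA 24 h replicate 3 had a median of 13.25 there, against 6.04 for that array.

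Apaf1, the scaffold of the apoptosome, was the member with the widest separation between DMA and DMSO at 48 h. Its log2 intensity was 5.06, 4.66 and 4.79 on DMA replicates 1, 2 and 3, against 5.98, 5.69 and 6.09 on DMSO replicates 1, 2 and 3. All DMA arrays were below all DMSO arrays, with 0.63 log2 between the highest DMA and the lowest DMSO value. Means were 4.84 ± 0.208 after DMA and 5.92 ± 0.205 after DMSO (SD, n = 3 each), a difference of -1.08 and a DMA over DMSO ratio of 0.472. Same-numbered arrays differed by -0.91, -1.04 and -1.30. This difference is the one for which Apaf1 was chosen, so it has no test here.

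The pooled SD of Apaf1 at 48 h was 0.207, and a choice by groups that do not overlap favours a small one. Its probe averaged 5.37 over the 12 arrays, below the median of 6.16 over all tested probes, so a filter at that median leaves Apaf1 out. Leaving out 1 array of 48 h gave differences between -1.20 and -0.99, and groups that do not overlap stay apart by construction. On DMA 48 h replicate 3 intensities drifted along the probe numbers, and at the Apaf1 probe that drift was -0.11. With the drift removed from every array the Apaf1 difference was -1.03, again with no overlap.

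At 24 h, a time that did not enter the choice of genes, Apaf1 read 5.16, 5.32 and 5.70 on the DMA arrays and 5.62, 5.24 and 5.12 on the DMSO arrays. The groups overlapped. Means were 5.39 ± 0.279 after DMA and 5.32 ± 0.262 after DMSO (SD, n = 3 each), and the difference of 0.07 (SE 0.315) did not pass in limma (adjusted p = 0.967). The pair differences were -0.46, 0.08 and 0.59, and the sign of the mean difference turned to -0.09 without DMA replicate 3. The pooled SD at 24 h was 0.271, where 2565 genes within 0.5 log2 of the mean level of Apaf1 had a median of 0.682 and 6.43% of them a smaller one. Over the 4 groups, Apaf1 was lowest in DMA hearts at 48 h, intermediate in both 24 h groups, and highest in DMSO hearts at 48 h. The 24 h groups differed by less than their SD. Between the times Apaf1 differed by -0.56 among DMA hearts and 0.60 among DMSO hearts, where the median gene differed by 0.36 among DMA and 0.42 among DMSO hearts.

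**Figure D1:**
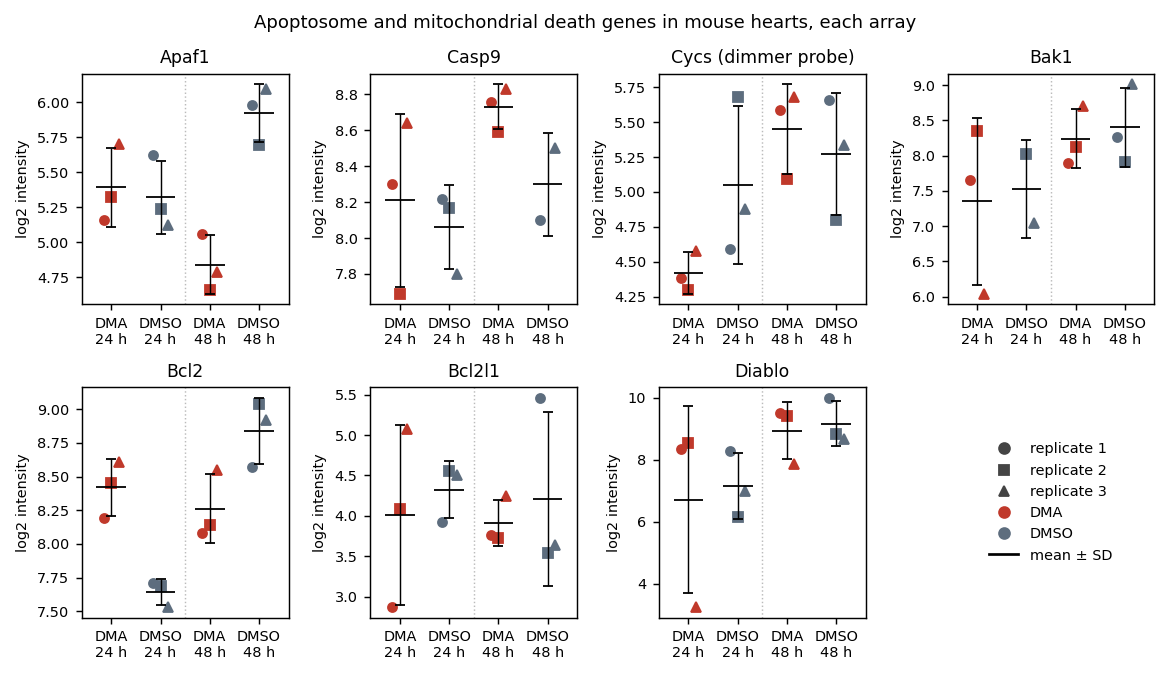
Log2 intensity on each array for 7 members (y axes differ in range), with DMA in red left of DMSO in grey at each time; symbols mark the replicate number, bars the mean and SD. Apaf1 at 48 h sits between 4.66 and 5.06 after DMA and between 5.69 and 6.09 after DMSO, and Bcl2 is higher after DMA at 24 h and lower at 48 h.

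Casp9, the caspase that the apoptosome activates, lay on the other side of DMSO at 48 h. It read 8.76, 8.59 and 8.83 on the DMA arrays, and 8.10 and 8.50 on DMSO replicates 1 and 3, with no value on DMSO replicate 2. DMA arrays were all above the DMSO arrays with a value, but by only 0.09 at the closest point. Means were 8.73 ± 0.125 after DMA (SD, n = 3) and 8.30 ± 0.286 after DMSO (SD, n = 2), a difference of 0.43. It was 0.23 without DMSO replicate 1 and 0.63 without DMSO replicate 3, with 1 DMSO value left in each case. At 24 h Casp9 read 8.30, 7.69 and 8.64 after DMA and 8.22, 8.17 and 7.80 after DMSO. These groups overlapped, and the difference of 0.15 (SE 0.351) did not pass (limma adjusted p = 0.933). Without DMA 24 h replicate 3 it was -0.06.

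Cycs encodes cytochrome c, the electron carrier whose release triggers the apoptosome. Its brightest probe had a single value, 10.28 on DMA 24 h replicate 3, and none on any DMSO array. That array carried 53 of the 54 probes with a value on 1 array only, at a median of 13.25. The dimmer Cycs probe, which the annotation assigns through an expressed sequence tag, read 4.38, 4.30 and 4.58 after DMA and 4.59, 5.68 and 4.88 after DMSO at 24 h. DMA was below DMSO by 0.01 at the closest point, and the difference of -0.63 (SE 0.384) did not pass (limma adjusted p = 0.871). At 48 h this probe read 5.59, 5.09 and 5.68 after DMA and 5.66, 4.80 and 5.34 after DMSO, with overlap and a difference of 0.18.

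Bcl2, which restrains the pore-forming proteins, was the 1 followed member whose groups did not overlap at either time, and the differences were of opposite sign. At 24 h it read 8.19, 8.45 and 8.61 on the DMA arrays, against 7.71, 7.69 and 7.53 on the DMSO arrays. All DMA arrays were above all DMSO arrays, by 0.48 at the closest point. Means were 8.42 ± 0.21 after DMA and 7.64 ± 0.0971 after DMSO (SD, n = 3 each), a difference of 0.77 (SE 0.305) and a ratio of 1.71. The unadjusted p was 0.0271 in the fit across all probes, and the limma adjusted p was 0.871, so Bcl2 did not pass. Pair differences were 0.48, 0.77 and 1.08, and leaving out any 1 array of 24 h gave differences of 0.68 to 0.89.

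At 48 h Bcl2 read 8.08, 8.14 and 8.55 after DMA, against 8.57, 9.04 and 8.92 after DMSO. Here all DMA arrays were below all DMSO arrays, by only 0.02 at the closest point. Means were 8.26 ± 0.256 after DMA and 8.84 ± 0.245 after DMSO (SD, n = 3 each), a difference of -0.59. Pair differences were -0.49, -0.90 and -0.37. The difference was -0.73 without DMA replicate 3, and with the drift along probe numbers removed it was -0.56 with overlapping groups. Over the 4 groups Bcl2 was lowest in DMSO hearts at 24 h and highest in DMSO hearts at 48 h, with both DMA groups between. The DMA groups of the times lay within 1 SD of each other. DMA hearts of 48 h and 24 h differed by -0.16 and DMSO hearts by 1.20, where the median gene differed by 0.36 among DMA and 0.42 among DMSO hearts.

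**Figure D2:**
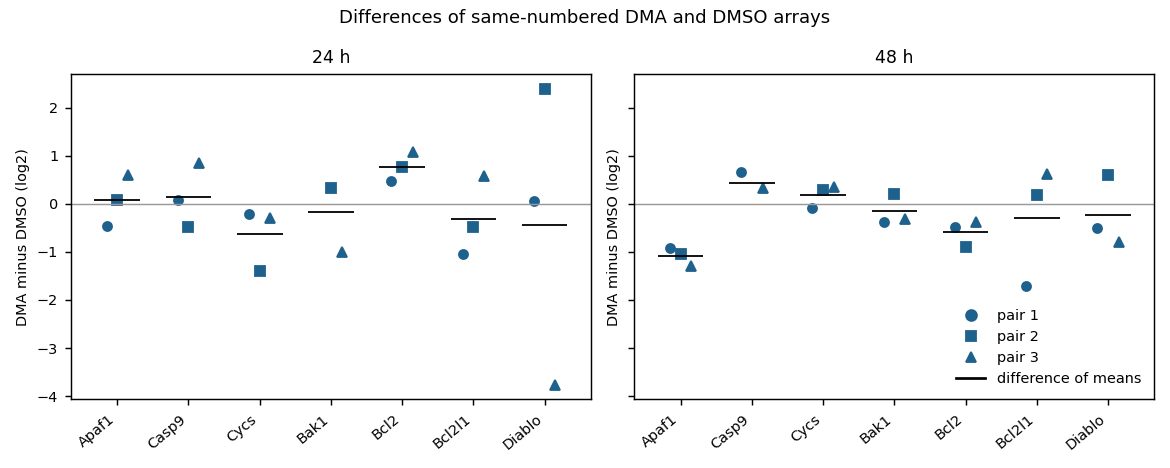
Differences in log2 intensity between same-numbered DMA and DMSO arrays (symbols) and between group means (bars) for 7 members at 24 h and 48 h, with Cycs by its dimmer probe. Apaf1 is at -0.91 to -1.30 in the pairs of 48 h, and Bcl2 is above 0 in the 3 pairs of 24 h and below 0 in the 3 pairs of 48 h.

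Bcl2l1, which encodes the restraining protein Bcl-xL, had overlapping groups at both times. With a mean of 4.11 over the 12 arrays, Bcl2l1 lay below the median of 6.16 over all tested probes. At 48 h it read 3.76, 3.73 and 4.25 after DMA and 5.46, 3.54 and 3.64 after DMSO. DMSO replicate 1 alone lay high, and the difference of -0.30 was 0.32 without it. At 24 h Bcl2l1 read 2.87, 4.08 and 5.08 after DMA and 3.92, 4.55 and 4.50 after DMSO. The difference was -0.31 (SE 0.616, limma adjusted p = 0.918). The DMA arrays spanned the DMSO range on both sides, and the difference was 0.26 without DMA replicate 1. Over the 4 groups the means lay between 3.91 and 4.32, a range smaller than the SD of DMA hearts at 24 h (1.11) or of DMSO hearts at 48 h (1.08).

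Bak1, a pore-forming partner of Bax, did not separate at any time. At 48 h it read 7.89, 8.12 and 8.70 after DMA and 8.27, 7.91 and 9.01 after DMSO, a difference of -0.16 that was 0.15 without DMSO replicate 3. At 24 h it read 7.65, 8.35 and 6.04 after DMA, and 8.02 and 7.04 on DMSO replicates 2 and 3, with no value on DMSO replicate 1. DMA replicate 3 was the lowest array. The 24 h difference of -0.18 (SE 0.667, limma adjusted p = 0.956) was 0.47 without it. Between the times Bak1 differed by 0.89 among DMA and 0.87 among DMSO hearts, where the median gene differed by 0.36 and 0.42. The DMA value includes the low reading of DMA 24 h replicate 3 (6.04), and the DMSO mean of 24 h rests on 2 arrays.

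Diablo, the antagonist of inhibitor of apoptosis proteins, was the most variable member. At 24 h it read 8.33, 8.55 and 3.24 after DMA and 8.28, 6.16 and 7.0 after DMSO. DMA replicate 3 was far below the other arrays, and the pooled SD of Diablo, 2.25, was larger than that of 97.9% of 2035 genes of similar level. The difference of -0.44 (SE 1.2, limma adjusted p = 0.941) was 1.30 without that array. At 48 h Diablo read 9.49, 9.41 and 7.87 after DMA and 9.99, 8.81 and 8.67 after DMSO, a difference of -0.23 that was 0.29 without DMA replicate 3. Between the times Diablo differed by 2.22 among DMA and 2.01 among DMSO hearts, the largest such differences of the 6 tested members with all arrays. The median gene differed by 0.36 and 0.42. The DMA value rests largely on the 3.24 of DMA 24 h replicate 3, since the other DMA arrays of 24 h read 8.33 and 8.55.

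Of the 6 tested members, 0 passed in limma at 24 h, with 1, Bcl2, at an unadjusted p under 0.05. Over all 35401 probes 0% passed on the higher and 0% on the lower side at either time, and 3.03% had an unadjusted p under 0.05 at 24 h and 1.4% at 48 h. The groups of 24 h did not overlap for 1 of the 6 members, higher after DMA, where 4.42% of 17611 genes were higher and 3.29% lower without overlap. At 48 h 1 member was higher without overlap (3.95% of genes) and 2 were lower (2.33% of genes), counts that include the choice of Apaf1. With the drift along probe numbers removed 1 was higher (2.87% of genes) and 1, Apaf1, lower (2.32%), since Bcl2 then overlapped. Without DMA 48 h replicate 3 the member counts were 1 and 2, and 7.79% of genes were higher and 7.12% lower without overlap. Groups that do not overlap stay apart when an array is left out, so these counts could not fall. Median differences of the 6 were -0.05 at 24 h and -0.27 at 48 h, against 0.09 and 0.01 for all genes tested. Without replicate 3 of the DMA group of each time the 6 had medians of 0.20 and -0.43, and all genes of 0.00 and 0.01.

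Markers of several cell types leaned below 0 at 48 h beside the lower Apaf1 and Bcl2 values, with none called and with sums that overlapped between the groups for endothelial and cardiomyocyte markers. For endothelial cells 12 of 12 markers had a negative difference (median -0.35), and the summed intensity of the 10 with a value on each array of 48 h was 15060 to 24067 after DMA and 20736 to 25064 after DMSO. Of the 10 cardiomyocyte markers tested 8 were negative, with a median of -0.28 and sums over 8 markers of 33666 to 53325 after DMA and 44015 to 51817 after DMSO. Smooth muscle and pericyte markers had 5 of 8 negative with a median of -0.23, the 1 erythroid marker was at -0.44, macrophage and monocyte markers had 4 of 7 negative with a median of -0.10, and fibroblast markers had 4 of 9 negative with a median of 0.15. Lymphocyte markers, from cells known for high Bcl2, had 3 of 9 negative at 48 h, a median of 0.12 and sums over 8 markers of 1043 to 1287 after DMA and 967 to 1105 after DMSO. At 24 h, where Bcl2 was higher after DMA, the lymphocyte median was 0.34, with sums over 8 markers of 761 to 1598 after DMA and 706 to 826 after DMSO. The lymphocyte sums overlapped between the groups at both times. Medians of the other cell types at 24 h ran from -0.08 for fibroblast to 0.62 for adipocyte markers, with 0.43 for macrophage and monocyte markers. The part of these cells in the Apaf1 and Bcl2 values was not tested, and in whole hearts fewer cells of a type cannot be told apart from less RNA per cell.

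The rest of the death machinery gave no call at either time. The 9 lists around the apoptosome, with a further list of E2F factors, held 124 gene symbols, Septin4 also under its older symbol Sept4. Of these, 97 genes were tested, and 0 passed in limma on either side. An unadjusted limma p under 0.05 was seen for 3 at 24 h and 0 at 48 h. Their median difference was -0.06 at 24 h, with 42 positive and 55 negative, and 0.01 at 48 h, with 50 positive and 47 negative. Groups did not overlap at 24 h for 5 higher genes (4.42% of all genes) and 6 lower ones (3.29%), and at 48 h for 1 higher (3.95%) and 2 lower (2.33%). Without DMA 24 h replicate 3 these counts were 8 higher (9.43% of all genes) and 11 lower (8.63%) at 24 h, and without DMA 48 h replicate 3 they were 5 (7.79%) and 6 (7.12%) at 48 h. The 5 higher at 24 h were Dffb, Xkr8, Becn1, Bnip3 and Cse1l, a nuclear export factor. The 6 lower at 24 h were Casp2, Fadd, Tnfrsf21, Cdkn1a, Zmat3 and Acin1. At 48 h Fasl, the ligand of Fas, was higher and Bik and Cideb were lower. Casp2, Fadd, Cdkn1a, Cse1l, Fasl and Cideb, and Acin1 and Tnfrsf21 at 24 h, are named after their values were seen.

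Of the 6 genes lower without overlap at 24 h, Casp2, Fadd and Zmat3 rested mostly on DMA replicate 3. Casp2, a caspase that acts upstream of the mitochondria, read 9.91, 9.95 and 5.17 after DMA, and 10.50 and 10.33 on the 2 DMSO arrays with a value. Its difference of -2.07 (SE 1.16) was -0.49 without DMA replicate 3. Fadd, the adaptor that links death receptors to caspase-8, read 9.55, 9.53 and 6.82 after DMA, and 9.99 and 9.75 on 2 DMSO arrays, a difference of -1.24 (SE 0.722) that was -0.33 without that array. Cdkn1a, the p53 target that halts the cell cycle, read 7.55, 7.10 and 6.37 after DMA and 7.64, 7.96 and 7.89 after DMSO, a difference of -0.82 (SE 0.477) that was -0.50 without it. Tnfrsf21, death receptor 6, did not show this dependence: it read 2.99, 1.21 and 3.35 after DMA and 4.31, 5.06 and 3.73 after DMSO, and its difference of -1.85 (SE 1.16) was -2.27 with that array left out and -1.20 with DMA replicate 2 left out. Acin1, a nuclear caspase substrate, differed by only -0.17 (SE 0.476).

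Nucleases and other executioners had the 2 smallest p-values of the 97 genes at 24 h. Dffb, the nuclease that cuts chromatin between nucleosomes once caspases free it, read 6.85, 7.04 and 6.98 after DMA and 6.21, 5.31 and 5.67 after DMSO, which differ by 1.22 (SE 0.359) with a limma adjusted p of 0.871. Xkr8, a scramblase that exposes phosphatidylserine on dying cells, read 5.77, 5.46 and 5.41 after DMA and 5.05, 3.67 and 4.66 after DMSO, which differ by 1.09 (SE 0.416) with a limma adjusted p of 0.871. The DMA and DMSO arrays of Dffb and Xkr8 did not overlap, and the Xkr8 difference was 0.69 without DMSO replicate 2. Of 9 caspase substrates and nucleases tested 8 had a positive difference at 24 h, with a median of 0.41. Without DMA replicate 3 this became 4 of 9, with a median of -0.04. At 48 h 7 of the 9 were negative with a median of -0.11, among them Acin1 at -0.59 (SE 0.476) and the lamin gene Lmnb1 at -0.85 (SE 0.724), while Parp1 was at 0.79 (SE 0.645). The Acin1 difference was -0.05 and that of Lmnb1 -0.30 without DMA replicate 3, and that of Parp1 was 0.23 without DMA replicate 1.

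Upstream of the pores, 9 BH3-only proteins were tested, which sense damage and open the pores. Becn1, better known for autophagy, read 8.70, 8.70 and 9.76 after DMA at 24 h, and 8.21 and 8.27 on the 2 DMSO arrays with a value, a difference of 0.82 (SE 0.404) that was 0.46 without DMA replicate 3. Bnip3, a mitochondrial protein induced by low oxygen, read 12.65, 12.39 and 12.52 after DMA and 12.19, 11.95 and 11.57 after DMSO at 24 h, a difference of 0.61 (SE 0.322). Both were without overlap, and both had a limma adjusted p of 0.871. At 48 h Bik read 7.50, 7.26 and 7.36 after DMA, and 7.98 and 8.06 on 2 DMSO arrays, a difference of -0.64 (SE 0.694, limma adjusted p = 1) without overlap. The SE of Bik pools the spread of all 4 groups, with DMA 24 h replicate 3 among the arrays. Its SDs at 48 h were 0.121 after DMA (n = 3) and 0.0563 after DMSO (n = 2). Bcl2l11 (Bim) was at 0.31 (SE 0.407) at 48 h and at 0.04 without DMA replicate 3. The list medians were 0.05 at 24 h and 0.04 at 48 h.

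Other multidomain members of the Bcl2 family, with 8 tested, had medians of -0.07 at 24 h and -0.09 at 48 h. Bcl2l13 was at 1.12 (SE 0.585) at 24 h, and at 0.64 without DMSO replicate 2, while Bcl2l14 was at 0.39 (SE 0.413) at 48 h and at 0.09 without DMA replicate 3. The 9 inhibitor of apoptosis genes and their antagonists had medians of -0.21 and 0.01 at 24 h and 48 h. No gene of either list was without overlap at any time with all arrays. Other caspases had a median of -0.82 over 5 genes at 24 h, which was -0.10 without DMA replicate 3, and 0.03 at 48 h.

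For modulators of the apoptosome and genes of the mitochondrial pore, the 24 h medians rested on 1 array. The 11 modulators tested had a median of -0.81 at 24 h, and the 12 pore and release genes one of -0.47. Without DMA 24 h replicate 3 these medians were 0.08 and 0.28. Hspa4, a heat shock protein, showed the same dependence, with a difference of -1.67 (SE 0.849) that was -0.35 without that array. Dnm1l, the dynamin of mitochondrial fission, was at -2.77 (SE 1.28) from 2 DMA values, and at -0.09 from the 1 left without that array. Endog, a mitochondrial nuclease, was at 0.98 (SE 0.444) and at 0.50 without it. At 48 h the medians were 0.07 and 0.09, and Cyct, the testis form of cytochrome c, was at 1.78 (SE 1.07) and at 0.41 without DMSO replicate 3.

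The death receptor arm, which starts cell death at the plasma membrane, had 10 tested genes with medians of -0.04 at 24 h and 0.03 at 48 h. Traf2 and Tnfrsf21 were at -0.75 (SE 0.492) and -1.93 (SE 1.3) at 48 h. Without DMA replicate 2 Traf2 was at -0.29, and without DMA replicate 1, where it read the lowest value of that array, Tnfrsf21 was at -0.36. The 16 genes of p53 and its targets had medians of -0.06 at both times. In that list Ccng1 and Zmat3 were at -0.93 (SE 0.487) and -1.47 (SE 0.798) at 24 h, and at -0.28 and -0.44 without DMA replicate 3. Sesn2 and Gadd45a were at -0.58 (SE 0.683) and -0.35 (SE 0.447) at 48 h, and each was at 0.05 without DMA replicate 3. All genes named from these lists had a limma adjusted p of 0.871 at 24 h or of 1 at 48 h, except Cse1l (0.886) and Acin1 (0.942) at 24 h.

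**Figure D3:**
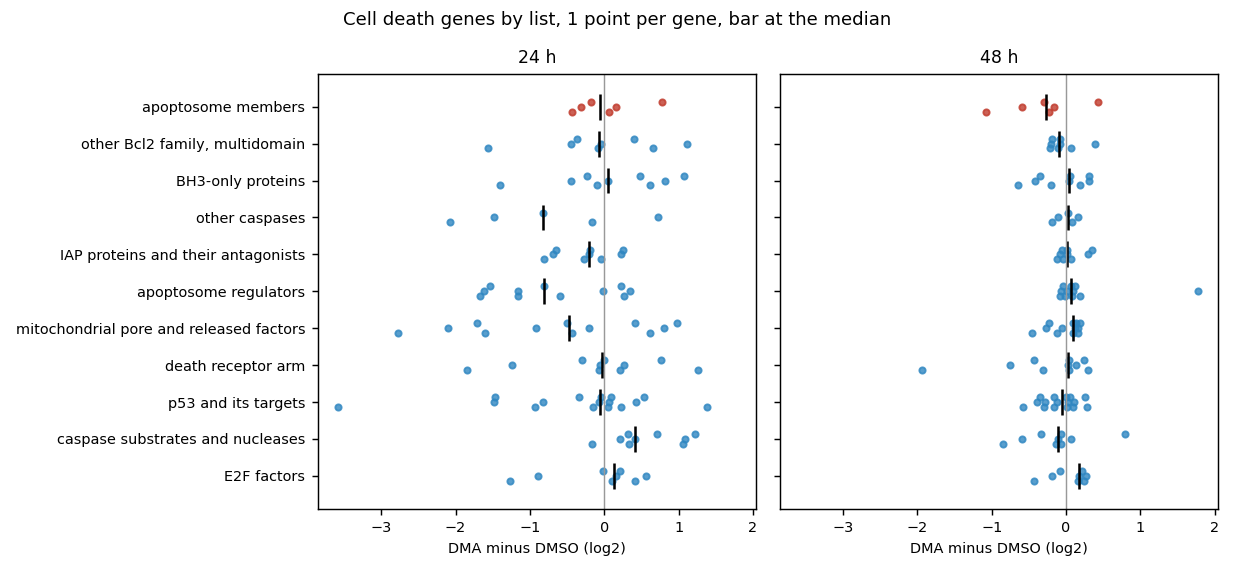
DMA minus DMSO difference in log2 intensity for each tested gene of the 8-gene list (red) and of 10 other lists (blue) at 24 h and 48 h; black bars mark list medians. The 24 h points spread more widely, and list medians at 48 h lie between -0.27 and 0.17.

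Genes whose pattern was most like that of Apaf1 were found by Pearson correlation over 12 arrays, after subtracting the mean of each time, among 12356 genes with a value on every array. They were Blk, a kinase of B cells, at r = 0.872, Gm8300 at 0.857, the vomeronasal receptor gene Vmn1r235 at 0.825, the collagenase gene Mmp1b at 0.809 and A930017K11Rik at 0.794. Blk, the closest, averaged 3.90 ± 0.196 after DMA and 5.07 ± 0.254 after DMSO at 48 h, and 4.46 ± 0.301 after DMA and 4.27 ± 0.439 after DMSO at 24 h (SD, n = 3 each). Vmn1r235 averaged 4.29 ± 0.351 after DMA and 5.47 ± 0.252 after DMSO at 48 h (SD, n = 3 each). Apaf1 itself averaged 4.84 after DMA and 5.92 after DMSO at 48 h, a level near that of this vomeronasal receptor gene. Whether the Apaf1 probe read above background was not tested. The 5 genes were ranked first for likeness to a gene that itself was chosen by its 48 h values, and their correlations describe these arrays only.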

How the data were processed

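Total RNA of myocardium was copied into biotinylated cRNA and stained with Cy5-streptavidin, per the labels' protocols. The deposited table holds log2 intensities of 36227 probes on 12 arrays. Background correction, scaling and the reason for missing values are not given in the sources used here. Genes were named from 21615 probes with 1 symbol, and the probe with the highest mean stood for a gene. The 35401 probes with at least 2 values in each group entered a limma fit (version 3.58.1, R 4.3.3) of all 12 arrays with a term per group, and p-values were adjusted by Benjamini-Hochberg across probes, with 0.05 as the threshold. The fit was run on simulated independent normal values with 1 spread per probe. These held no array that stood apart, no pairing and no drift, so that run checked the code and not its behaviour on these arrays. Figures used matplotlib 3.10.9 in Python 3.11.15.

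Replicate numbers are shared between the groups. Same-numbered arrays deviated together from their group means (r = 0.11 to 0.186 at 24 h and 0.266 to 0.329 at 48 h). The numbers were therefore used as pairs for the pair differences and the replicate block. This pairing was found in the data and is not explained in the labels. The main limma fit, which gave the SEs and p-values, had no term for it. The members and lists were chosen with earlier results of these data known. Named from the lists were, at each time, the 12 genes of smallest unadjusted p, and the 5 genes most like Apaf1. Alternatives were the 6 arrays of a time, the replicate block, array weights, quantile normalization, removal of a running median over 501 probes along probe numbers, floor values set to missing, filters, and each array left out. A planned Bax against Bcl2 ratio was not computed, since no probe is named Bax. The number of arrays limits the precision.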

Additional observations from a re-analysis of the deposited data

Results flagged for a closer look

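Bcl2 had differences of opposite direction at the 2 times, with no overlap of the groups at either. DMA minus DMSO was 0.77 at 24 h and -0.59 at 48 h. The 3 pairs of each time had its sign, which the lack of overlap fixes. At 48 h the gap between the groups was 0.02, and with the drift along probe numbers removed the groups overlapped at -0.56. The difference between the times was not tested. Among 17611 genes, 18 (0.102%) were higher without overlap at 24 h and lower without overlap at 48 h, and 23 (0.131%) showed the reverse.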

How the results depend on the processing

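Probes called stayed at 0 at both times with the 6 arrays of a time, array weights, quantile normalization, drift removal, floor values set to missing, low probes left out and complete probes only. The low probes left out included those of Apaf1 and Bcl2l1. This filter left 402 of 17701 probes at a limma unadjusted p under 0.05 at 24 h and 5 of 17701 at 48 h. With all probes these numbers were 1071 and 494 of 35401, and the cause was not tested. Leaving out 1 array gave 0 to 14 calls at 24 h and 0 to 1 at 48 h, and 0 calls among the other death genes throughout. Calls of 24 h appeared without DMA replicate 1 (9) or DMA replicate 2 (14), and those of 48 h without DMA replicate 1 or DMSO replicate 2 (1 each). The calls of 24 h were all lower after DMA. They came from runs that kept DMA 24 h replicate 3, the array that stood apart, and without that array calls were 0. The shared spread carries that array into the 48 h fit. Without it 794 probes of 48 h had a limma unadjusted p under 0.05, against 494 with it, and 0 were called. With the replicate block on the 6 arrays of a time, calls were 0 at both times, with 561 probes at an unadjusted p under 0.05 at 24 h and 1476 at 48 h, against 501 and 778 without the block, and no member's call changed. Genes without overlap numbered 1358 at 24 h and 1105 at 48 h, and 2421 to 4279 and 2417 to 3292 with 1 array of that time left out, since fewer arrays overlap less often.

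At 24 h array weights turned Apaf1 to -0.03, Bak1 to 0.45 and Diablo to 1.28. Leaving out 1 array gave -0.09 to 0.22 for Apaf1, -0.06 to 0.41 for Casp9, -0.69 to 0.47 for Bak1, -0.85 to 0.26 for Bcl2l1 and -1.36 to 1.30 for Diablo; the cause was not tested. At 48 h Diablo was at 0.11 with array weights, and Apaf1, Bcl2 and Casp9 had their sign in every alternative run, which the lack of overlap fixes for arrays left out. A mean over probes was not run, since Cycs alone had several.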

Other observations

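E2F factors, a family that regulates genes of the cell cycle and among its targets includes Apaf1, were measured for 8 of 8 genes. At 24 h 5 lay above 0 and 3 below, and the median of 0.13 was -0.22 without DMA replicate 3. E2f6 was at -0.90 (SE 0.463) and E2f8 at -1.27 (SE 0.66), both with a limma adjusted p of 0.871, and without that array they were at -0.44 and -0.59. At 48 h 5 were positive and 3 negative, with a median of 0.17 that was -0.03 without DMA replicate 3. E2f2 was at -0.44 (SE 0.413, limma adjusted p = 1), and at -0.18 without DMA replicate 1.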
